A study of Homo sapiens with 12 samples.

Results

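Ribosome assembly factors are the proteins that fold, cut and modify ribosomal RNA while a ribosome is built. Here 47 of their genes were followed in cell lines that the study names as ovarian cancer, treated with quinacrine (QC). The 47 genes were listed by name as factors of the small subunit processome and of later pre-ribosomes. The list is not defined by a measured value, but earlier results of these data were known when it was made. By the step at which each factor acts they were split into 26 early 90S factors, 6 factors of the 40S precursor and 15 factors of the 60S precursor. All 47 were found in the deposited table of 60669 gene identifiers, and all 47 passed the filter on low counts that left 18720 genes for testing. QC, an acridine drug first used against malaria, was given at 8 µM for 6 h, and the controls of each line received buffer (vehicle) in parallel. HeyA8, SK-OV-3 and OV2008 were labelled sensitive to chemotherapy. Their isogenic partners, in the same order, were HeyA8-MDR, the line SK-OV-3-TR, and C13, a line labelled as a derivative of OV2008, and these 3 were labelled resistant. PolyA RNA of 1 library was sequenced for each line and treatment, 12 libraries in all, which makes the 3 lines of each group its only replicates. Every p-value sets a change against a spread between lines, which was estimated with information shared across genes. The QC effects in sensitive and in resistant lines share 1 estimate of the spread over all 12 libraries. An SE given for 3 lines is thus not the spread of those 3 lines alone.

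A ribosome starts in the nucleolus as a long precursor RNA made by RNA polymerase I. The small subunit processome, or 90S particle, assembles on the front of this transcript around the U3 small nucleolar RNA and makes the early cuts that separate the 18S part from the rest. The 18S part then matures in a 40S precursor that is exported and trimmed in the cytoplasm, while the 5.8S and 28S parts mature in a separate series of 60S precursors. Genes of these factors are active in dividing cells and include targets of the transcription factor MYC.

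The depth, as the sum of a library's gene counts, ran from 17782556 to 30585059 (median 22289428). The HeyA8 QC library stood apart from the others. Over the 218 genes that were at least 8-fold lower in HeyA8-MDR than in HeyA8 under vehicle, it lay a median of 52.7% of the way from HeyA8 to HeyA8-MDR. Over the 285 genes that were at least 8-fold higher in HeyA8-MDR it lay 39.6% of the way, and these shares lay between 0% and 31.2% for the other QC libraries. The 31.2% was that of the HeyA8-MDR QC library toward HeyA8 over the same 285 genes, and over the 218 genes its share was 3.45%. Calls over all lines and in the sensitive lines are therefore also given without the HeyA8 pair. Comparisons by isogenic family and values of single lines are not. Of the epithelial ovarian tumour markers, PAX8 was between 7.56 and 24.8 CPM (normalised read counts scaled to a common library size) in the OV2008 and C13 libraries and between 234 and 480 in the other 8 libraries. KRT7 was split likewise, at 13.8 to 26.9 and 259 to 731 CPM. KRT8 went the other way, at 1830 to 3960 and 211 to 1060 CPM, as did KRT18 at 922 to 2100 and 161 to 621. EPCAM was between 183 and 246 CPM in OV2008 and C13 and between 0 and 2.92 CPM in the HeyA8 and HeyA8-MDR libraries. WT1 reached 4.79 CPM and MUC16 10.9. The fibroblast and leukocyte markers COL3A1, PTPRC, CD3E and CD68 were at or near 0 CPM throughout, and COL1A1 reached 39.4 CPM. OV2008 and C13 were thus low in PAX8 and KRT7, and the tissue of origin of the lines was not tested.

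Before treatment the 47 factors covered a wide range of levels. Per kilobase of exon, the median level over the 6 vehicle libraries ran from 0.0904 CPM for PWP2 to 43.5 CPM for NOB1, with a median over the factors of 12.4 CPM. The PWP2 value leaves out a second identifier that held most counts of the pair in the HeyA8 and OV2008 families. NOB1, the endonuclease that makes the last cut at the end of 18S rRNA, had the highest level per kilobase. It was followed by EBNA1BP2, an early 60S factor, at 37.1 CPM per kilobase and by the RNA helicase DDX21 at 35.3. The median per kilobase was 16.2 CPM for the 40S factors, 13.8 for the 60S factors and 10.9 for the early 90S factors, and the 3 classes overlapped widely. KRR1, the factor with the largest increase under QC, had 3.0 CPM per kilobase, rank 43 of 47. This value was divided by 10747 exon bases, and before that division KRR1 lay between 22.4 and 68.8 CPM under vehicle. Levels differed between lines by up to 12.1-fold for RRP12, a factor of 40S export, leaving aside PWP2, which is described separately. RRP8, a methyltransferase of 28S rRNA, varied least, by 1.7-fold. Exon lengths were taken from a gene annotation lifted to another genome build, and they join the exons of all annotated transcripts of a gene. A gene with many or long transcripts therefore ranks lower, and values and ranks per kilobase are approximate.

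Over all 6 lines 9 of the 47 factors passed the unadjusted threshold, and more factors were lower than higher. Of the 47, 18 were higher and 29 lower, with a median log2 change of -0.093 against 0.0001 for all genes tested. At an unadjusted p under 0.05, the threshold the study used, KRR1 and EBNA1BP2 rose, and NLE1, UTP14A, NAT10, NOB1, RRS1, NOP2 and WDR3 fell. Over all genes tested, 7.99% rose and 7.18% fell at that threshold in edgeR's quasi-likelihood test with a term for each line. The 2 factors that rose are thus a smaller share than among all genes, and the 7 that fell a larger one. After Benjamini-Hochberg adjustment 0% of all genes, and so none of the factors, passed 0.05 in edgeR, with 2840 genes at an unadjusted p under 0.05 and a smallest adjusted p among the factors of 0.15. DESeq2 with the same model called 518 genes after adjustment, and KRR1 (adjusted p = 0.0211) and NLE1 (adjusted p = 0.00854) were among them.

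**Figure D1:**
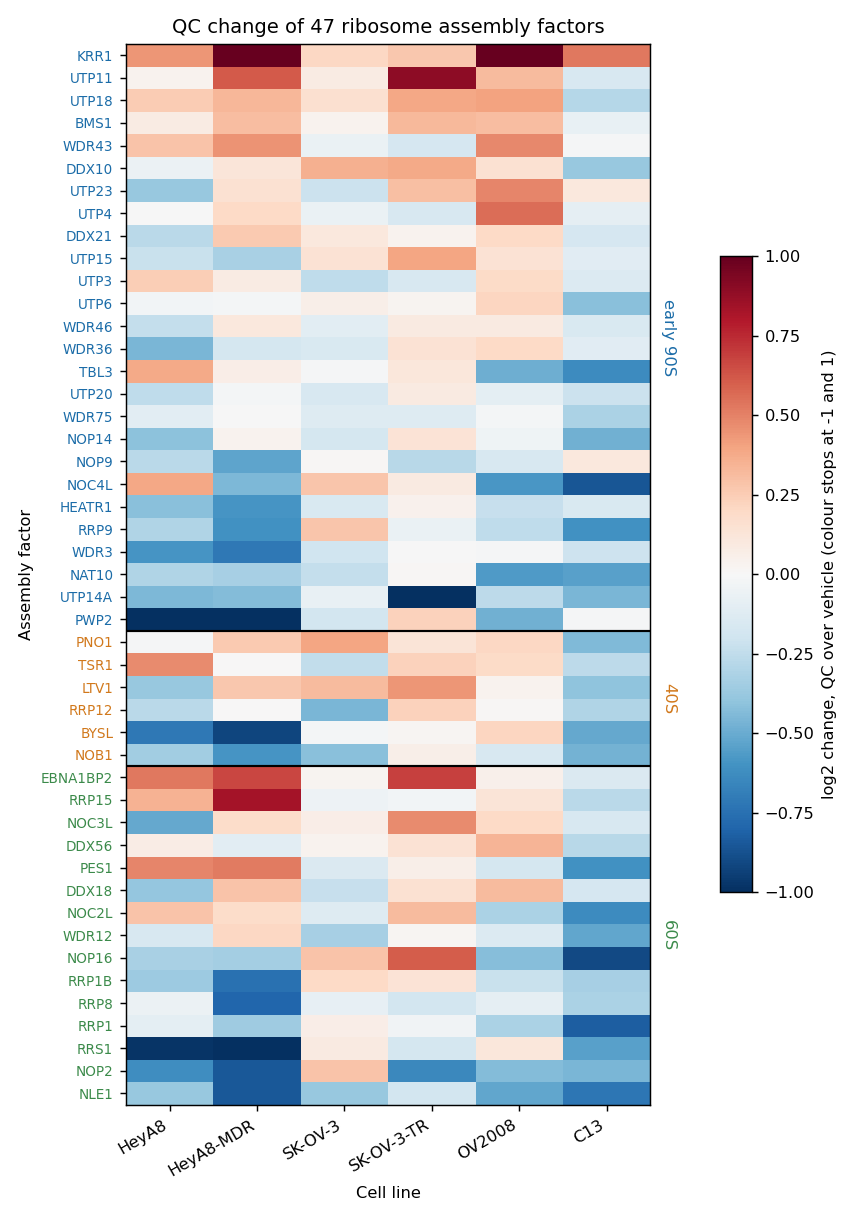
Each row is 1 of the 47 ribosome assembly factors and each column 1 cell line, and colour gives the log2 change of normalised CPM from vehicle to QC, with 1 library per treatment. Rows are grouped into early 90S, 40S and 60S factors and ordered within a class by their mean. KRR1 is red in every line, NLE1 and UTP14A are blue in every line, and the C13 column is blue in 44 of 47 rows.

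KRR1, an RNA-binding protein of the small subunit processome that is required to make 18S rRNA, was the factor with the clearest increase and the only one that was higher in 6 of 6 lines. Among all genes tested 4.13% were higher in 6 of 6 lines. From vehicle to QC, KRR1 went from 65.1 to 88.7 CPM in HeyA8, from 68.8 to 79.5 in SK-OV-3 and from 22.4 to 56.2 in OV2008. In the resistant lines it went from 24.7 to 59.0 CPM in HeyA8-MDR, from 33.7 to 40.6 in SK-OV-3-TR and from 30.7 to 44.2 in C13. The QC libraries overlapped the vehicle libraries as groups, because lines differed in their starting level, and the increase was visible within each line. It was largest in OV2008 and HeyA8-MDR, the lines that started lowest, at 1.33 and 1.25 on the log2 scale, and smallest in SK-OV-3 at 0.21. The starting level and the change share the vehicle library of the line and are not independent. Over the 6 lines the log2 change was 0.67 ± 0.17 (SE, n = 6 lines, edgeR unadjusted p = 0.00171, adjusted p = 0.154). It stayed between 0.54 and 0.75 when each line was left out in turn, with an unadjusted p of at most 0.00818. Of the exon bases of KRR1, 14.1% overlap GLIPR1 on the opposite strand. Whether counting used strand is not given in the sources used here. On the log2 scale GLIPR1 was at -0.16 in HeyA8 and -0.89 in SK-OV-3 under QC. It was at 0.28 in HeyA8-MDR, 0.29 in C13, 1.43 in SK-OV-3-TR and 1.56 in OV2008, where it went from 8.57 to 25.4 CPM and where KRR1 had its largest increase. The part of GLIPR1 reads in the KRR1 counts was not tested.

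**Figure D2:**
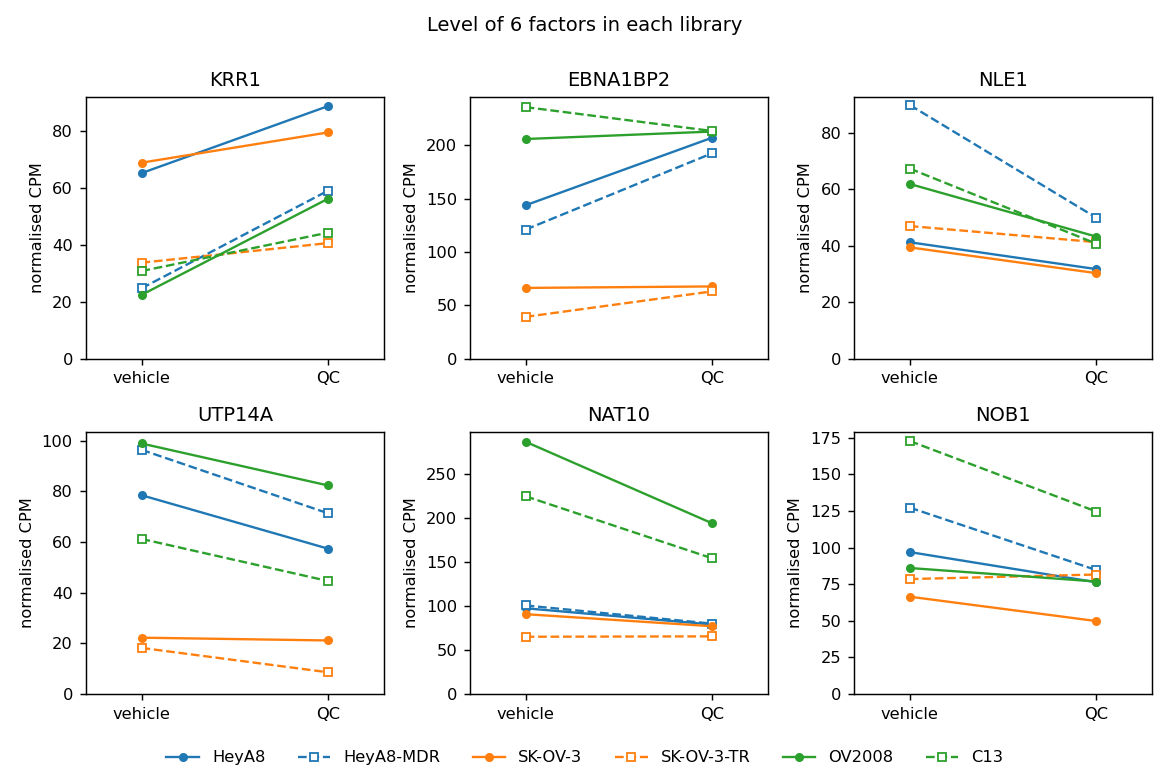
Normalised CPM of 6 assembly factors in the vehicle and QC library of each line, from 0 upward. Lines join the 2 libraries of a cell line, filled circles and solid lines mark sensitive lines, and open squares and dashed lines mark resistant lines. KRR1 slopes up and NLE1 and UTP14A slope down in all 6 lines, while EBNA1BP2, NAT10 and NOB1 each have 1 line that goes the other way.

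NLE1 and UTP14A fell over the 6 lines and were lower in each of them. NLE1 is a WD-repeat protein that docks on the 60S precursor and is pulled off by the large ATPase MDN1 before export. It went from 41.3 to 31.7 CPM in HeyA8, from 39.5 to 30.3 in SK-OV-3 and from 62.0 to 43.2 in OV2008. In the resistant lines it went from 89.97 to 49.9 CPM in HeyA8-MDR, from 47.02 to 41.3 in SK-OV-3-TR and from 67.4 to 40.7 in C13. The QC values lay within a narrow band of 30.3 to 49.9 CPM, and the largest falls were in HeyA8-MDR and C13, which started highest. A line's vehicle library enters both its starting level and its change, so these are not independent measurements. The log2 change over the 6 lines was -0.51 ± 0.12 (SE, n = 6 lines, edgeR unadjusted p = 0.00127, adjusted p = 0.15), and it remained between -0.57 and -0.45 with any line left out.

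UTP14A is a processome protein that works with the helicase DHX37 when U3 is released from the particle. It went from 78.5 to 57.4 CPM in HeyA8, from 22.2 to 21.1 in SK-OV-3 and from 98.9 to 82.3 in OV2008. In the resistant lines it went from 96.4 to 71.3 CPM in HeyA8-MDR, from 18.2 to 8.54 in SK-OV-3-TR and from 61.2 to 44.6 in C13. The 2 lines of the SK-OV-3 family stood far below the other 4 before and after treatment, and they also held both the smallest change, -0.073 on the log2 scale in SK-OV-3, and the largest, -1.08 in SK-OV-3-TR. The change over the 6 lines was -0.45 ± 0.14 on the log2 scale (SE, n = 6 lines, edgeR unadjusted p = 0.00546, adjusted p = 0.177). UTP14A has a retrocopy, UTP14C, and how reads that match both were counted is not given in the sources used here.

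NAT10 and NOB1 were lower in 5 of 6 lines, with SK-OV-3-TR the exception for both. NAT10, the enzyme that acetylates cytidines in 18S rRNA, went from 286.8 to 194 CPM in OV2008 and from 224.8 to 154.2 in C13, the lines with most of it. It went from 97.4 to 78.9 CPM in HeyA8, from 100.6 to 79.9 in HeyA8-MDR and from 90.7 to 77.0 in SK-OV-3, and it was 65.0 and 65.5 CPM in SK-OV-3-TR. Its log2 change was -0.33 ± 0.11 (SE, n = 6 lines, edgeR unadjusted p = 0.0132, adjusted p = 0.213), and without the OV2008 pair it was -0.28 with an unadjusted p of 0.056. NOB1 went from 172.8 to 124.6 CPM in C13, from 127.3 to 84.6 in HeyA8-MDR and from 66.4 to 49.8 in SK-OV-3, and it was 78.5 and 81.6 CPM in SK-OV-3-TR. Its log2 change was -0.32 ± 0.12 (SE, n = 6 lines, edgeR unadjusted p = 0.0169, adjusted p = 0.227), past the threshold with any line left out. PNO1, the RNA-binding partner of NOB1 on the 40S precursor, did not pass the test and was higher in 4 of 6 lines.

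The other 4 calls rested on single lines. RRS1, which helps to load the 5S ribonucleoprotein onto the 60S precursor, fell from 90.5 to 45.9 CPM in HeyA8 and from 55.8 to 26.5 in HeyA8-MDR, while it was 19.5 and 20.8 CPM in SK-OV-3 and 49.7 and 53.8 in OV2008. WDR3, a subunit of the UTP-B complex, had log2 changes of -0.59 in HeyA8 and -0.71 in HeyA8-MDR and of -0.0043 in SK-OV-3-TR and -0.012 in OV2008. In WDR3, 17.1% of the exon bases overlap SPAG17 on the opposite strand, which was at 54.9 and 49.5 CPM in SK-OV-3-TR and below 1 CPM in the other lines. EBNA1BP2 rose by 0.53 on the log2 scale in HeyA8, 0.67 in HeyA8-MDR and 0.69 in SK-OV-3-TR and was at -0.14 in C13, which gave 0.30 ± 0.14 over all lines (SE, n = 6 lines, edgeR unadjusted p = 0.0491, adjusted p = 0.328). With DESeq2's size factors in edgeR its unadjusted p was 0.0522, and that of WDR3 was 0.0501 with scaling by library size. Neither RRS1 nor WDR3, EBNA1BP2 or NOP2 passed the threshold once the HeyA8 pair or the HeyA8-MDR pair was left out, whereas KRR1, NLE1, UTP14A, NAT10 and NOB1 passed without either. Without the HeyA8 pair, 5 factors were called, 1 of them higher, as were 2393 of 19890 genes tested. Among these 4 calls, that of WDR3 was also lost without SK-OV-3, those of EBNA1BP2 and NOP2 without SK-OV-3-TR, that of NOP2 without OV2008, and those of NOP2 and RRS1 without C13. NOP2, a cytosine methyltransferase of 28S rRNA, had low counts, between 1.48 and 10.1 CPM, and 54.4% of its exon bases are shared on the same strand with another annotated gene whose own counts were 0 to 2 per library.

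The factors lower in all 6 lines also included members that missed the threshold. WDR75, a subunit of the UTP-A complex that binds the front of the pre-rRNA, and RRP8 had changes of one sign in every line, as did NLE1, UTP14A and WDR3. These are 5 of 47 factors, and 4.6% of all genes tested were lower in 6 of 6 lines. For WDR75 the log2 changes lay between -0.32 in C13 and -0.0077 in HeyA8-MDR, and for RRP8 between -0.79 in HeyA8-MDR and -0.060 in HeyA8. In OV2008, WDR75 was at -0.022 and WDR3 at -0.012. Signs this near 0 depend on the scaling. The median over the factors moved from 0.0048 to 0.042 in HeyA8-MDR with DESeq2's size factors, and from 0.035 to 0.086 in OV2008 with library size. UTP11, another processome protein, had the third smallest p among the higher factors, with a log2 change of 0.29 ± 0.15 (SE, n = 6 lines, edgeR unadjusted p = 0.0698, adjusted p = 0.367) and 5 of 6 lines higher.

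The promoters of the 4 factors with the smallest p over the 6 lines are shown because the clearest changes under QC were theirs. They are the 250 bases before the gene start in RefSeq on GRCh38.p14, written 5′ to 3′ on the gene's own strand, with capitals marking the E-box CACGTG, the motif bound by MYC and related factors. The KRR1 window is chr12:75511610-75511859 on the minus strand, the NLE1 window chr17:35142304-35142553 on the minus strand, the UTP14A window chrX:129905914-129906163 on the plus strand, and the NAT10 window chr11:34105379-34105628 on the plus strand.
KRR1: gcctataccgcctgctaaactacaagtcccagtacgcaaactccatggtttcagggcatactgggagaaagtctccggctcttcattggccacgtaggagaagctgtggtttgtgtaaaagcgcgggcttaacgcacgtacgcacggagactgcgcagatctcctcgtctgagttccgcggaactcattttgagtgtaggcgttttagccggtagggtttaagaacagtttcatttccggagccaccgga
NLE1: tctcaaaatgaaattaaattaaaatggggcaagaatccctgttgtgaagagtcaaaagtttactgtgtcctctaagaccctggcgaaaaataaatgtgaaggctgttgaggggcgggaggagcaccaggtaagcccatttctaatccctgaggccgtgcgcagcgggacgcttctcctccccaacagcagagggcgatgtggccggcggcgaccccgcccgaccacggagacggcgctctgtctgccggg
UTP14A: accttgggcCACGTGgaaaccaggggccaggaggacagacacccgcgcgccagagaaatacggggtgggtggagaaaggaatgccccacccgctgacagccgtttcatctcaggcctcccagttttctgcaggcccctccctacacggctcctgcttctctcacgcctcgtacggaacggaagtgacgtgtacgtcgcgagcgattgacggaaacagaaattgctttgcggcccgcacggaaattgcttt
NAT10: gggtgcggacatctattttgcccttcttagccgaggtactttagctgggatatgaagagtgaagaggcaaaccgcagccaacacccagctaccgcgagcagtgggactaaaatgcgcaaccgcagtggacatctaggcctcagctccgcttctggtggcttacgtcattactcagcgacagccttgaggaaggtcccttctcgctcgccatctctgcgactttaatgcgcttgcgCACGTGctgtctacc
KRR1 and NLE1 have no match in these windows. UTP14A has 1 match beginning 241 bases before the start, and NAT10 has 1 beginning 15 bases before it. A RefSeq promoter was found for 42 of the 47 factors, and 7 of them (16.7%) hold the motif, which reads the same on both strands. These are 6 of 25 early 90S factors (24.0%), among them UTP4 and UTP20 with matches 16 and 10 bases before the start, 1 of 12 60S factors (8.33%) and 0 of 5 40S factors. The motif is held by 10.7% of the promoters of all genes tested that had one and by 7.73% of all promoters in the table, and a match in these letters is a description, not a binding site.

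The 3 classes did not separate over the 6 lines as a whole. The median log2 change over 6 lines was -0.065 for the early 90S factors (10 higher and 16 lower, 1 called higher and 3 called lower), -0.044 for the 40S factors (3 higher and 3 lower, 1 called lower) and -0.16 for the 60S factors (5 higher and 10 lower, 1 called higher and 3 called lower). The order of the early 90S and 60S medians differed from line to line. The 60S median was above the early 90S median by 0.068 in HeyA8 and 0.097 in SK-OV-3 on the log2 scale. It was below it by a difference of -0.030 in SK-OV-3-TR, -0.12 in HeyA8-MDR, -0.25 in OV2008 and -0.29 in C13. With DDX21, DDX18, RRP12, BYSL and PNO1 left out, factors that act at more than 1 step, the medians were -0.093 for early 90S, 0.043 for 40S and -0.18 for 60S factors, so the sign of the 40S median depends on 3 factors.

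**Figure D3:**
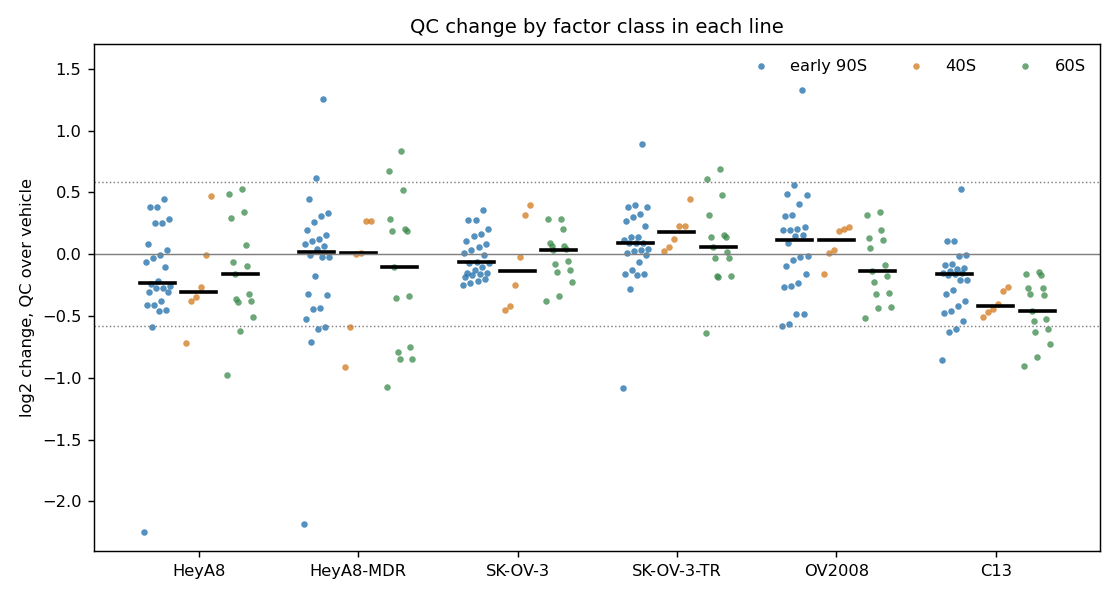
Each point is 1 factor, placed by its log2 change from vehicle to QC in each of the 6 lines and coloured by class, with 1 library per treatment. Black bars are class medians and dotted lines mark a 1.5-fold change in either direction. In C13 all 40S and 60S points lie below 0, whereas in SK-OV-3 no point lies beyond the dotted lines.

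Line medians over the 47 factors ran from -0.30 in C13 to 0.090 in SK-OV-3-TR. In C13, 44 of the 47 factors were lower under QC, with a median log2 change of -0.30, and the 3 that were higher were KRR1 at 0.52, NOP9 at 0.11 and UTP23 at 0.10. All 15 60S factors and all 6 40S factors were lower there, with medians of -0.46 and -0.42, while 23 of 26 early 90S factors were lower with a median of -0.16. Among the 60S factors, NOP16 was at -0.90, RRP1 at -0.83, NLE1 at -0.73, NOC2L at -0.63 and PES1 at -0.60. PES1, which forms a complex with WDR12 and BOP1 needed for 28S processing, went from 306.3 to 201.6 CPM, and WDR12 was at -0.52. In all, 8 of 47 factors fell at least 1.5-fold in C13 and 0 rose as much, against 12% and 17.4% of all genes tested. The largest change there was that of NOP16, from 104.4 to 55.9 CPM, and the largest among early 90S factors that of NOC4L, a partner of NOP14, at -0.86. Each line has 1 library per treatment, so these differences have no replicate check. The shares of all genes at 1.5-fold, here and below, include genes with few counts, whose ratios are noisier. At least 10 counts in every library were held by 46 of the 47 factors and by 11602 of the 18720 genes. The shares are thus not matched to the factors for count level.

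Scaling bore on this pattern. Scaled by library size alone, 34 of 47 factors were lower in C13 with a median of -0.14, but the median of all genes then stood at 0.12, so that the factors lay at -0.26 relative to all genes, against -0.30 with the TMM scaling used otherwise. With DESeq2's size factors 43 of 47 were lower and the median was -0.29.

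In HeyA8 the median was also negative, at -0.24, with 33 of 47 factors lower. There 5 factors fell at least 1.5-fold and 0 rose, against 16.8% and 19.4% of all genes. These values rest on the HeyA8 QC library, which lay 52.7% and 39.6% of the way to HeyA8-MDR over the genes that separate the 2 lines. Under vehicle the factors' own median in HeyA8-MDR over HeyA8 was -0.28, and the part of this shift in the HeyA8 changes was not tested. HeyA8-MDR had the widest spread, with a median of 0.0048, 24 factors higher and 23 lower. In HeyA8-MDR 4 factors rose at least 1.5-fold (16.4% of all genes) and 11 fell (19.3% of all genes). KRR1 and RRP15, a 60S factor, led the increases in HeyA8-MDR at 1.25 and 0.83 on the log2 scale, and RRS1 and BYSL, a 40S factor also known as bystin, were at -1.07 and -0.91. RRS1 and BYSL were low in HeyA8 as well, at -0.98 and -0.71 in the same QC library, whereas BYSL was 0.22 in OV2008 and 0.023 in SK-OV-3-TR.

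SK-OV-3 and OV2008 had the fewest factors with a 1.5-fold change. In SK-OV-3 0 of 47 factors moved 1.5-fold in either direction, and the median was -0.053. Of all genes, those with few counts included, 9.07% were higher and 10.2% lower by that much. In OV2008 KRR1 alone rose by that much and 0 fell, against 18.6% and 16.2% of all genes, and the median was 0.035. The opposite tendency to that of C13 was seen in SK-OV-3-TR, where 33 of 47 factors were higher with a median of 0.090. All 6 40S factors were higher there, by 0.023 for BYSL up to 0.45 for LTV1, a 40S export factor. In SK-OV-3-TR 3 factors rose at least 1.5-fold, UTP11 at 0.89, EBNA1BP2 at 0.69 and NOP16 at 0.61 on the log2 scale, and UTP14A and NOP2 fell, against 10.1% and 14.5% of all genes. With library size alone the SK-OV-3-TR median turned to -0.029 while that of all genes was -0.12, so relative to all genes it stayed at 0.093. The HeyA8-MDR median also turned, to -0.13, at an all-gene median of -0.13.

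NOP16 illustrates how the lines diverged. This small nucleolar protein of the 60S precursor went from 104.4 to 55.9 CPM in C13 and from 75.1 to 55.8 in OV2008, and from 12.3 to 18.7 CPM in SK-OV-3-TR and from 11.8 to 14.4 in SK-OV-3. It was lower in the 2 lines with most of it under vehicle and higher in the 2 lines with least, but the vehicle library enters both the level and the change. NOC4L was similarly split, at 0.38 in HeyA8 and 0.27 in SK-OV-3 on the log2 scale and at -0.58 in OV2008 and -0.86 in C13, as was TBL3, a UTP-B subunit, at 0.38 in HeyA8 and -0.63 in C13.

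Whether the response of the factors depended on resistance was asked by fitting QC effects for the sensitive and the resistant lines and testing their difference. The study describes HeyA8-MDR as resistant to carboplatin, SK-OV-3-TR to taxol and C13 to cisplatin. The resistant group thus pools 3 kinds of resistance, in this test and in that under vehicle. In the sensitive lines 1 factor rose, KRR1 at 0.65 ± 0.25 (SE, n = 3 lines, edgeR unadjusted p = 0.0237, adjusted p = 0.713), and 1 fell, NLE1 at -0.43 ± 0.19 (edgeR unadjusted p = 0.0417, adjusted p = 0.729). Among all genes 3.55% rose and 3.04% fell. In the resistant lines KRR1 rose by 0.68 ± 0.25 (SE, n = 3 lines, edgeR unadjusted p = 0.0195, adjusted p = 0.816), against 3.43% of all genes. UTP14A at -0.65 ± 0.19 (edgeR unadjusted p = 0.0058), NLE1 at -0.59 ± 0.19 (edgeR unadjusted p = 0.00862) and RRS1 at -0.60 ± 0.25 (edgeR unadjusted p = 0.0342) fell, against 2.59% of all genes, and their adjusted p-values were 0.816 to 0.818. After adjustment 0% of genes passed in either group in edgeR, with 1234 and 1128 genes at an unadjusted p under 0.05. DESeq2 called 31 genes and 0 genes, none of them among the 47 factors. The median log2 change of the 47 factors was -0.084 in sensitive and -0.069 in resistant lines.

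The change of KRR1 differed between the groups by 0.027 ± 0.35 on the log2 scale (SE, edgeR unadjusted p = 0.939). Of the 47 factors 0 passed an unadjusted p under 0.05 for resistant minus sensitive, against 0.566% of all genes higher and 0.593% lower in the resistant lines. After adjustment 0% of genes passed in edgeR, with 217 genes at an unadjusted p under 0.05, and DESeq2 called 1 gene, which is not among the 47 factors. UTP14A had the smallest p, with a difference of -0.38 ± 0.27 (SE, edgeR unadjusted p = 0.182, adjusted p = 0.9998), followed by RRP8 at -0.36 ± 0.28 and NOC4L at -0.44 ± 0.37. This fit did not pair each resistant line with its isogenic partner. With the isogenic family as a block 0 of 47 factors passed either, with 438 genes at an unadjusted p under 0.05, and NOC4L had the smallest p among the factors at -0.44 ± 0.27 (SE, n = 3 families, edgeR unadjusted p = 0.137, adjusted p = 1). RRP9, a protein of the U3 particle, was next at -0.33 ± 0.21 (edgeR unadjusted p = 0.143), and its QC change was lower in the resistant partner by similar amounts in each family, at -0.30 for HeyA8, -0.35 for SK-OV-3 and -0.35 for OV2008 on the log2 scale. In 3 of 3 families 7 factors had the lower change in the resistant partner, RRP9, NOC4L, NOP2, RRP1, RRP1B, RRP8 and RRS1, against 12.2% of all genes. Only 1, PWP2, had the higher, against 8.3%, and it had 1 to 16 counts per library in the HeyA8 and OV2008 families. Summed with a second identifier described below, PWP2 fell from 8.29 to 5.08 CPM in HeyA8 and further, from 7.27 to 3.50, in HeyA8-MDR. The HeyA8 values by family use the HeyA8 QC library and are not given without it. No factor was lower in every sensitive and higher in every resistant line (0.294% of all genes) or the reverse (0.689% of all genes). The median difference over the factors was -0.061 and turned to 0.082 without the C13 pair. For the 60S factors it went from -0.064 to 0.23 without C13 and to -0.31 without SK-OV-3-TR, so that 1 resistant line set its sign.

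The calls within groups also rested on single lines. Without the OV2008 pair KRR1 was at 0.33 in the sensitive lines (edgeR unadjusted p = 0.231) and 0 factors were called there, against 813 of 20213 genes tested. Without the HeyA8 pair or the SK-OV-3 pair NLE1 missed the threshold in the sensitive lines. Without the HeyA8-MDR pair 1 factor, UTP14A, was called in the resistant lines and KRR1 was at 0.38 (edgeR unadjusted p = 0.205), whereas without the SK-OV-3-TR pair 8 were called and UTP14A was not, and without the C13 pair RRS1 was not. Among all genes, 416 of 20081 were called in the resistant lines without HeyA8-MDR and 1200 of 19307 without SK-OV-3-TR.

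Under vehicle no factor passed the test between resistant and sensitive lines, and the 3 pairs leaned in different directions. In the fit across the 3 pairs 0 of 47 factors passed, against 1.96% of all genes higher and 1.75% lower in resistant lines. After adjustment 0% of all genes passed in edgeR, with 694 at an unadjusted p under 0.05, and DESeq2 called 47 genes and none of the factors. NOB1 had the smallest p, at 0.55 ± 0.29 (SE, n = 3 pairs, edgeR unadjusted p = 0.106, adjusted p = 0.994), and was higher in 3 of 3 resistant lines, as were NLE1, RRP9 and NOC4L. UTP20, a long scaffold protein of the processome, had the smallest p among the lower factors at -0.55 ± 0.34 (edgeR unadjusted p = 0.159).

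C13 had more of most factors than OV2008. Of the 47, 37 were higher in C13, with a median log2 difference of 0.37 against 0.030 for all genes, and 12 were at least 1.5-fold higher and 2 lower, against 23.1% and 18.7% of all genes. The 40S median was 0.64, the 60S median 0.37 and the early 90S median 0.27. NOB1 was 86.0 CPM in OV2008 and 172.8 in C13, and RRP15 had the largest difference at 1.18 on the log2 scale, while TSR1, a GTPase-like factor of late 40S maturation, went the other way at -0.89. The vehicle library of C13 enters both this difference and the QC change of C13, so the higher level under vehicle and the lower level under QC are not independent measurements.

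HeyA8-MDR leaned the other way from its parent, with 31 of 47 factors lower and a median of -0.28. There 12 factors were at least 1.5-fold lower and 4 higher, against 25.2% and 24.4% of all genes. KRR1 at -1.40 and UTP11 at -1.33 were the lowest and NLE1 at 1.12 the highest on the log2 scale. SK-OV-3-TR had a median of -0.098 against SK-OV-3, with 12 factors at least 1.5-fold lower and 2 higher, against 24.6% and 29.1% of all genes. WDR46, a processome protein, was lowest there at -1.35 and the helicase DDX10 highest at 0.93. KRR1 was 24.7 CPM in HeyA8-MDR and 65.1 in HeyA8, 33.7 in SK-OV-3-TR and 68.8 in SK-OV-3, but 30.7 in C13 and 22.4 in OV2008. Without the OV2008 family KRR1 and UTP11 passed the unadjusted threshold as lower in resistant lines, KRR1 at -1.19 (edgeR unadjusted p = 0.0344). Of all genes tested there, 924 of 19182 passed in either direction. The family left out went the other way, with C13 over OV2008 at 0.46 for KRR1 and 0.78 for UTP11 on the log2 scale.

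**Figure D4:**
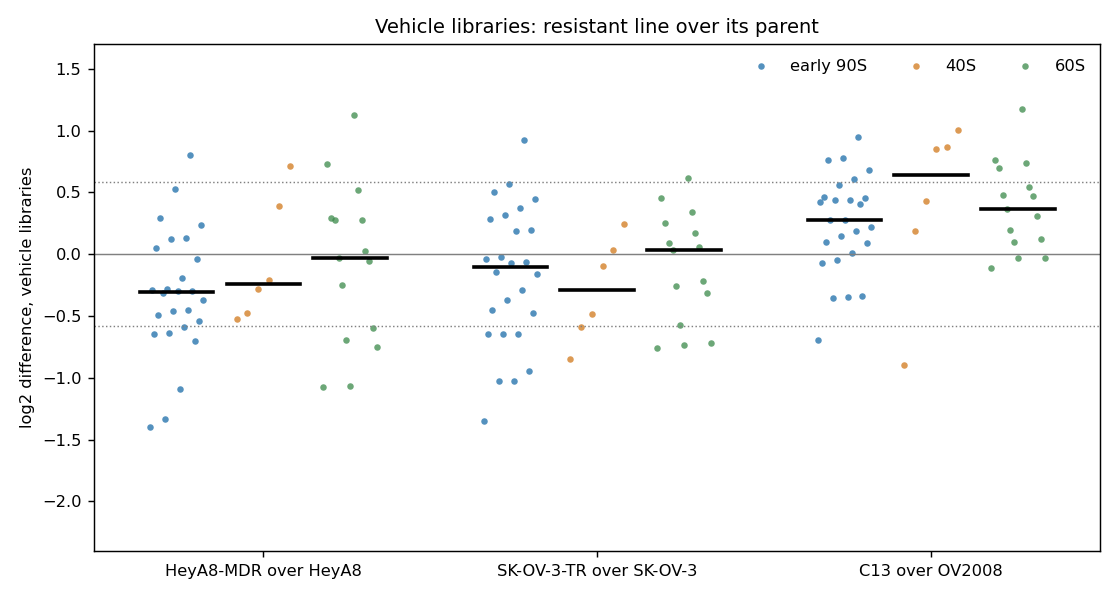
Each point is 1 factor, placed by the log2 difference of normalised CPM between the vehicle library of a resistant line and that of its sensitive partner and coloured by class, with 1 library per line. Black bars are class medians and dotted lines mark a 1.5-fold difference. Points lie mostly below 0 for HeyA8-MDR over HeyA8 and mostly above 0 for C13 over OV2008.

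PWP2, a core subunit of the UTP-B complex, was nearly uncounted in 4 lines, in which a second identifier held counts. It had between 1 and 16 counts in the libraries of HeyA8, HeyA8-MDR, OV2008 and C13 and between 167 and 255 in those of SK-OV-3 and SK-OV-3-TR. A second identifier, ENSG00000275464, overlaps 46.6% of the exon bases of PWP2 on the same strand in the lifted annotation, which is not the build named for the counts. RefSeq lists a gene of similar length, LOC102724159, from base 5130871 of chromosome 21, far from PWP2 at base 44107399. The lengths are 23788 and 23783 bases. Whether ENSG00000275464 is that gene was not tested. It had 0 counts in all 4 SK-OV-3 and SK-OV-3-TR libraries and between 58 and 311 in the other 8, where it held between 92% and 98.6% of the counts of the pair. Summed over both identifiers the level under vehicle lay between 7.27 CPM in HeyA8-MDR and 10.9 in C13, a narrow range. PWP2 alone was at -2.24 in HeyA8 and -2.18 in HeyA8-MDR on the log2 scale under QC, and these values rest on 1 to 15 counts. Summed, it went from 8.29 to 5.08 CPM in HeyA8 and from 7.27 to 3.50 in HeyA8-MDR. The change over 6 lines was -0.59 ± 0.41 (SE, n = 6 lines, edgeR unadjusted p = 0.176) for PWP2 alone and -0.32 ± 0.20 (edgeR unadjusted p = 0.125) for the sum, with no change in the number of factors called.

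**Figure D5:**
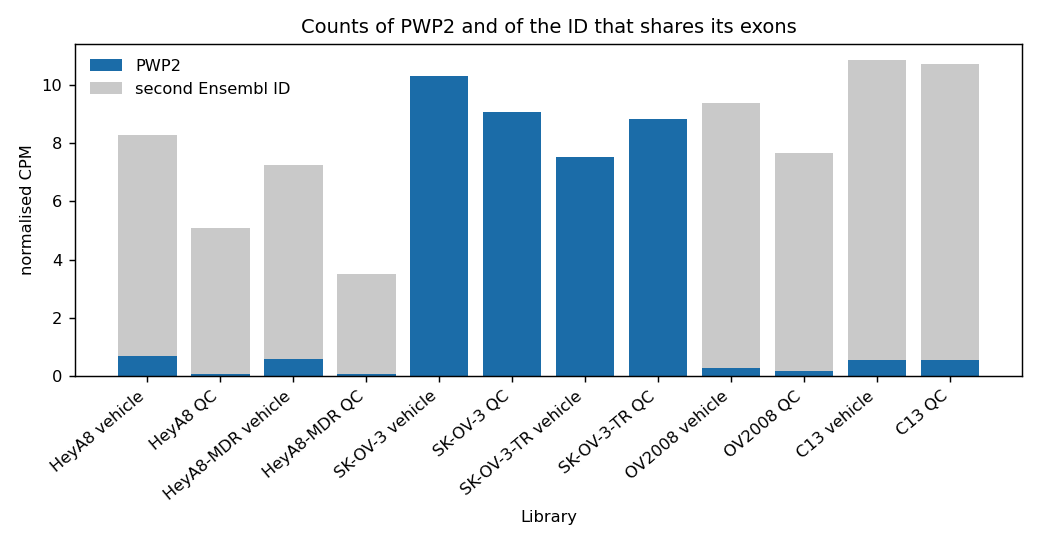
Bars give the normalised CPM of PWP2 (blue) and of ENSG00000275464 (grey), stacked, in each of the 12 libraries. The SK-OV-3 and SK-OV-3-TR libraries hold only blue, and in the other 8 libraries grey makes up at least 92% of the bar.

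Assembly factors outside the list of 47 had a median near that of all genes. Of 75 further factors tested, 5 rose and 8 fell over the 6 lines at an unadjusted p under 0.05, against 7.99% and 7.18% of all genes, with a median log2 change of -0.0011, and 0 passed adjustment. URB2 at -0.65 ± 0.14 (SE, n = 6 lines, edgeR unadjusted p = 6.61e-04, adjusted p = 0.141), a nucleolar protein linked to 60S assembly, and the GTPase GNL3L at -0.51 ± 0.12 (edgeR unadjusted p = 9.9e-04, adjusted p = 0.147) were lower in 6 of 6 lines. The kinase RIOK3, which associates with 40S precursors, was higher in 6 of 6 lines at 0.52 ± 0.15 (edgeR unadjusted p = 0.00354, adjusted p = 0.169), least in SK-OV-3 at 0.037 and most in OV2008 at 1.10. ESF1, a nucleolar processome protein, had the second smallest p among the higher factors, at 0.47 ± 0.17 (edgeR unadjusted p = 0.0158, adjusted p = 0.222). By class, 2 of 20 other early 90S factors rose and 2 fell, 2 of 9 other 40S factors rose and 0 fell, and 1 of 38 other 60S factors rose and 5 fell. Of the 8 proteins of box C/D and H/ACA particles, which guide methylation and pseudouridylation of rRNA, 1 fell, NOP56 at -0.33, and 0 rose. In C13, 65 of the 75 were lower with a median of -0.30, and all 8 of the small nucleolar particle proteins were lower with a median of -0.60. In SK-OV-3-TR, 56 of the 75 were higher with a median of 0.17.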

How the data were processed

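The authors prepared TruSeq libraries from polyA RNA of 12 cultures and deposited raw counts per gene, without normalization. The submitters' processing notes name STAR 2.7.3a, HTSeq 0.6.1p1 and the genome build GRCh38.p13, whereas the paper names TopHat and hg19, and the versioned Ensembl identifiers belong to a GRCh38 annotation. Strand settings are not given in the sources used here. Symbols were paired for 58620 of 60669 identifiers, which hold 99.868% of the counts.

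The analysis used edgeR 4.0.16 under R 4.3.3 (filterByExpr with a minimum count of 10 and a minimum total of 15, TMM, quasi-likelihood fit with cell line as block, isogenic family as block under vehicle). Tests were two-sided and adjusted by Benjamini-Hochberg over 18720 genes. Changes per line are log2 ratios of CPM with a prior count of 2. Deviations from the group means correlated at 0.893 to 0.929 between the vehicle and QC library of each line, which share the line. DESeq2 1.42.0 was an alternative, and the scripts were tested on simulated data. Plots used matplotlib 3.10.9.

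The factors, classes and lists were chosen with earlier results of these data known. All 47 factors could be named. Statistics were given in full for up to 3 factors with the smallest p in each direction and comparison, and for the 2 other factors with the smallest p in each direction. Summing PWP2 with a second identifier, and leaving out PWP2 and NOP2, were chosen after the data were seen. Libraries held at least 17782556 counts, PWP2 had as few as 1 count in a library, and each group had 3 lines.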

Additional observations from a re-analysis of the deposited data

How the results depend on the processing

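The number of factors called at an unadjusted p under 0.05 depended on the block for cell line, on the filter and on single lines. Without the cell line block 1 factor was called over all lines, 0 in sensitive and 0 in resistant lines. Of all 18720 genes tested, 117, 30 and 23 were called there, against 2840, 1234 and 1128 with the block. With no filter 1 was called in sensitive lines, and a floor of 10 counts in each library gave 8 in resistant lines. The genes called in these fits were 1918 of 39590 and 1060 of 11602. Leaving out each line in turn gave between 5 and 11 calls over all lines, between 0 and 3 in sensitive lines, between 1 and 8 in resistant lines and 0 for their difference, and leaving out each family gave between 0 and 2 under vehicle. The calls among all genes moved as well. With a line left out, 19307 to 20213 genes were tested. Of these, 2033 to 3103 were called over all lines, 808 to 2012 in sensitive lines, 416 to 1376 in resistant lines and 187 to 540 for the difference. With a family left out, 688 to 924 of 18227 to 19351 genes were called under vehicle. The median over the 47 factors lay between -0.12 and -0.023 over all lines with any line left out, and between -0.15 and 0.023 in resistant lines, where it was positive without C13. RRP12, at 0.21 for the resistant minus sensitive difference and not past the threshold, turned to -0.013 without the cell line block. Over all lines EBNA1BP2 was not called, and HEATR1 was, with DESeq2's size factors in edgeR and with DESeq2, which left 1 factor higher and 8 lower. With library size WDR3 was not called and RRP1 was. Without PWP2 and NOP2 the median over all lines was -0.047. An adjusted p under 0.05 was reached by KRR1 and NLE1 over all lines with DESeq2 and with no filter (KRR1 0.00255 and NLE1 0.0444 in edgeR), and by no factor in the other settings and comparisons run. The causes were not tested. With the isogenic family as a block for the resistant minus sensitive difference, 0 of 47 factors were called, the median over them was -0.066 against -0.061, and 438 against 217 genes had an unadjusted p under 0.05.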
